A study of Mus musculus with 64 samples.

Results

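Liver and white adipose tissue (WAT) of chow-fed wild-type mice were compared by RNA sequencing of the whole tissue. The comparison used 8 of the 64 libraries of the series, 4 from liver and 4 from WAT, chosen by the tissue, genotype and diet given in their labels. All 8 carried the labels CTRL and Chow. They came from male C57BL/6J animals that were wild type for Pklr, the gene mutated in the other arm of the study. These animals were sampled at 16 weeks of age after 8 weeks as the chow arm of a sucrose feeding experiment. The labels describe 4 mice per genotype and diet, so the 4 libraries of each tissue were taken as 4 animals, and the depot that the WAT came from is not named. The remaining libraries (wild-type mice on the high-sucrose diet, HSD, and Pklr mutants labelled KO on either diet, and heart and muscle of all 4 groups) entered only where stated.

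Liver and white fat are the main tissues of a mouse that make fatty acids and triglyceride, but they handle them differently. Hepatocytes take up sugar and fatty acids, make glucose, ketone bodies, bile acids, urea and most plasma proteins, and export triglyceride as very low density lipoprotein (VLDL). White adipocytes take up fatty acids released from lipoproteins at the capillary wall, store triglyceride in 1 large droplet, release fatty acids on demand, and secrete hormones such as leptin and adiponectin.

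The libraries held 8211781 to 10093487 estimated counts in liver and 8288047 to 11927003 in WAT. Levels are given as TPM (a share of the transcripts in a library, corrected for their length), with the SD over 4 libraries after the ± sign. Fold changes are liver over WAT on the log2 scale, with the standard error after the ± sign, from edgeR's quasi-likelihood test on counts scaled with the trimmed mean of M-values (TMM), and p-values were Benjamini-Hochberg adjusted over the 12941 genes tested. Of these genes, 9499 (73.4%) differed at an adjusted p under 0.05, 4523 (35%) higher and 4976 (38.5%) lower in liver. A stricter test against a 4-fold difference called 1163 genes (8.99%) higher and 1801 (13.9%) lower in liver. The TPM ranges of the tissues did not overlap for 83.6% of the tested genes, so a lack of overlap in a single gene is the common case. These counts depended on the scale. The median gene shifted by -1.16 on the log2 scale when library totals replaced TMM and by -1.41 on log2(TPM + 0.1). Calls then split into 1697 higher and 9304 lower on library totals, 1443 higher and 9990 lower on log2(TPM + 0.1), and 3513 higher and 5985 lower with upper-quartile factors. A positive fold change smaller than that shift can therefore stand beside a TPM value that is lower in liver. No gene called beyond 4-fold changed sign with library totals, upper-quartile or DESeq2 size factors, and 1 did on the TPM scale.

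The libraries of a tissue resembled each other. Correlations were taken on the log2 scale of TMM-scaled counts of the tested genes. The lowest was 0.963 between 2 liver libraries and 0.968 between 2 WAT libraries, against 0.397 to 0.434 between tissues. Liver replicate 1 stood apart by its acute phase transcripts. Saa1, a serum amyloid A protein induced in inflammation, had 45057, 66.2, 4974 and 675 TPM in liver replicates 1 to 4, against 5.02, 0, 1.76 and 1.33 TPM in WAT replicates 1 to 4, and Saa1 and its near-identical copy Saa2 can exchange reads. Several liver values that rest on this library are given with and without it. Transcripts of the labelled tissue's defining cells were present in all 8 libraries, as described below.

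Secreted proteins dominated the liver transcriptome. Alb, which encodes serum albumin, had 11570.0, 46242, 38169.7 and 30176 TPM in liver replicates 1 to 4, against 9.99, 17.5, 18.1 and 16.6 TPM in WAT replicates 1 to 4. All 4 liver libraries lay far above every WAT library, and the lowest liver value was that of replicate 1 (log2 fold change 12.43 ± 0.63, adjusted p = 1.19e-08, and 12.72 ± 0.36, adjusted p = 8.74e-10 without that library). The major urinary proteins, 22 near-identical pheromone-binding genes in the table, made up 10.9%, 16.9%, 22.7% and 27.9% of the TPM of liver replicates 1 to 4 and at most 0.00498% in any WAT library. Albumin and the other plasma, clotting, complement and hepatokine genes held 11.1% to 19% of TPM in liver and 1.44% to 1.81% in WAT, and apolipoproteins 4.71% to 6.52% in liver and 0.229% to 0.465% in WAT. The 19% was that of liver replicate 1, and the other liver libraries held 11.1% to 13.7%. Mitochondrially encoded transcripts held 12.2% to 17.5% of TPM in liver and 19.4% to 22.5% in WAT. The 100 most abundant genes took 65.1% to 68.7% of TPM in liver and 46% to 46.8% in WAT, and 9722 to 10031 genes in liver and 12376 to 12484 in WAT reached 1 TPM.

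**Figure D1:**
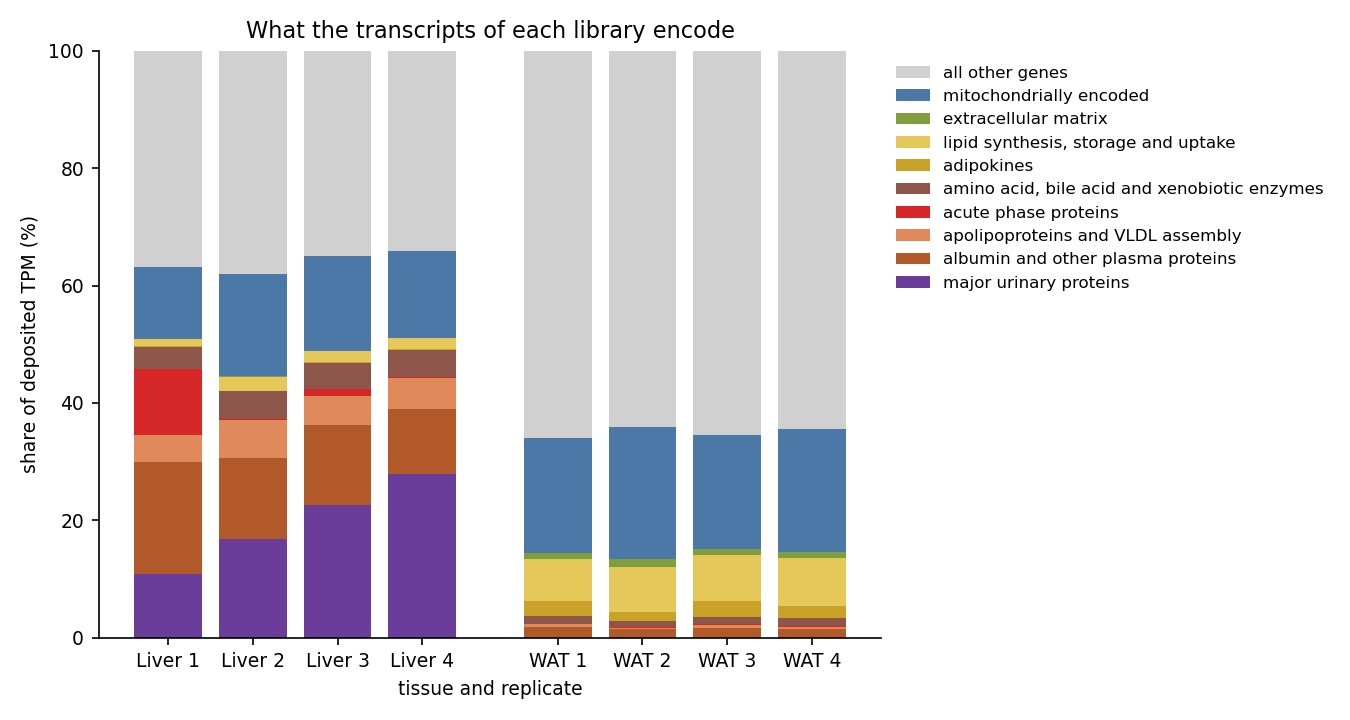
Share of the deposited TPM (%, vertical axis, from 0) by gene class in each library, with the 4 liver libraries left of the 4 WAT libraries. Major urinary proteins reach 27.9% in liver replicate 4, acute phase proteins stand out in liver replicate 1 (11.1%), and lipid synthesis, storage and uptake genes hold 7.22% to 8.06% of WAT but 1.26% to 2.36% of liver. Each gene is drawn in 1 class only, and the acute phase class holds 15 of the 20 listed genes. The whole acute phase list held 16.5% of liver replicate 1. Adipokine genes also in a plasma or acute phase list are drawn as adipokines only where their mean TPM is higher in WAT.

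Leaving out mitochondrially encoded, predicted, major urinary protein and Serpina1 genes here and in the rankings that follow, the most abundant liver transcripts by mean TPM besides Alb were Apoa2, Saa1, Saa2, Apoc1, Trf, Serpina3k, Fabp1, Hpx and Hp. All but Fabp1, the liver fatty acid binding protein, encode secreted proteins. The places of Saa1, Saa2, Hpx and Hp rest on liver replicate 1. Over the other 3 liver libraries they ranked 34, 69, 15 and 21, with means of 1905, 1063, 3672 and 2955 TPM, and Apoa1 (7069 TPM) and Ahsg (6033 TPM) entered the first 10. The most abundant WAT transcripts included Fabp4, Car3, Scd1, Cfd, Gsn, Lpl, Dbi, Adipoq and Eef1a1, a mixture of lipid handling, secreted and general cellular genes. Fabp4, the adipocyte fatty acid binding protein, had 8.23, 12.3, 11 and 11.5 TPM in liver replicates 1 to 4, against 27016, 21446, 20088 and 19433 TPM in WAT replicates 1 to 4. Its 4 WAT values were tightly grouped and its liver values were 0.0489% of them on average (log2 fold change -9.55 ± 0.31, adjusted p = 3.39e-10). Adipoq, which encodes adiponectin, had 1.4, 0.692, 0.753 and 0.832 TPM in liver replicates 1 to 4, against 5661, 4386, 4179.7 and 4470.0 TPM in WAT replicates 1 to 4, with no overlap and little spread among the WAT libraries (log2 fold change -11.08 ± 0.36, adjusted p = 3.62e-10). Car3, a carbonic anhydrase, averaged 1032 ± 551 TPM in liver and 19180.2 ± 1183 TPM in WAT, and was lower in liver without passing the 4-fold test (log2 fold change -2.76 ± 0.47, adjusted p = 0.000274). Dbi, the acyl-CoA binding protein, averaged 1833 ± 164 TPM in liver and 5322 ± 517 TPM in WAT and did not pass the test (adjusted p = 0.611). Its TPM ranges did not overlap, and its missing call depended on the scale. It was called lower in liver with upper-quartile factors (-0.37, adjusted p = 0.0418 in edgeR) and on library totals (-1.24, adjusted p = 9.98e-06 in edgeR). Limma on log2(TPM + 0.1) called it lower as well (-1.54, adjusted p = 8.46e-06).

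Promoters of a pair of genes from each side show the sequence upstream of these extremes. The 300-base windows, 250 before and 50 after the RefSeq transcript start on GRCm38.p6 and all on the plus strand, are printed in lower case. Capitals mark any match, on either strand, to the 5 motifs searched, whose letters follow below the windows. Alb lies at chr5:90460620-90460919, Fabp1 at chr6:71199629-71199928, Adipoq at chr16:23146286-23146585 and Lep, the leptin gene, at chr6:29059971-29060270.
Alb: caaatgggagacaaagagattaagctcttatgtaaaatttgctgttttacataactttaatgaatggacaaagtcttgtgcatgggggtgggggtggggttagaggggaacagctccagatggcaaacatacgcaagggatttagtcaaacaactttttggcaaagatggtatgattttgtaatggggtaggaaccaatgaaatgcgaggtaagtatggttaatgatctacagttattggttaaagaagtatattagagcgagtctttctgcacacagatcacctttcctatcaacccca
Fabp1: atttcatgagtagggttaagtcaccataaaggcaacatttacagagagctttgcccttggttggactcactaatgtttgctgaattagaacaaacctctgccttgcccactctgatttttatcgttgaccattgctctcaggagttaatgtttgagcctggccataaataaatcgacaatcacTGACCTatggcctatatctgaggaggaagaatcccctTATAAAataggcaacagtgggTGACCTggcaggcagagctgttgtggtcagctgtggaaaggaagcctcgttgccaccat
Adipoq: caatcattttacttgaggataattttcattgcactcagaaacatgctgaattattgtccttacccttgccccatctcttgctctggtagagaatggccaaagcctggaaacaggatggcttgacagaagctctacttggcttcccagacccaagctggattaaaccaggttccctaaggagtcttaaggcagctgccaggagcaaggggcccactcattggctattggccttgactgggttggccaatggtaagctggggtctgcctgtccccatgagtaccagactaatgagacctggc
Lep: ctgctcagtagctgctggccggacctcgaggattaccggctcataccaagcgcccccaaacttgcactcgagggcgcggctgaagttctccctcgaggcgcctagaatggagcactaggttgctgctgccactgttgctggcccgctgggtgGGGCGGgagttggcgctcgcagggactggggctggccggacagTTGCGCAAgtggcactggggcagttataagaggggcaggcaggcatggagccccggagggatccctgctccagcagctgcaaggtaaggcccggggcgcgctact
The window of Fabp1 held TATAAA, the TATA box, at position -30 from the annotated start and AGGTCA at -67 and -9 on the opposite strand, and that of Lep held GGGCGG at -98 and TTGCGCAA at -55. None of the 5 motifs occurred in the Alb or Adipoq window. Each gene was picked with its level and its window known. Counting both strands, CAAAGTCCA, a form of the hepatocyte nuclear factor 4 repeat, occurred in 2.1% of 1144 promoters of genes higher in liver beyond 4-fold, 0.517% of 1740 promoters of genes lower beyond 4-fold, 0.527% of 13091 promoters of all tested genes and 0.475% of all 32851 promoters. The nuclear receptor element AGGTCA, which can overlap that repeat, was found in 21.1%, 12.7%, 13% and 16.3% of the same 4 sets, and TATAAA in 13.1%, 9.77%, 7.78% and 13.6%. The GC box GGGCGG was found in 42.9% of promoters of genes higher in liver, 54.6% of those lower, 59.8% of those tested and 35.7% of all. TTGCGCAA, the palindrome bound by C/EBP proteins, was rare everywhere, at 0.175%, 0.287%, 0.298% and 0.183%. These shares are descriptions without a test: 890 of the 1163 and 1320 of the 1801 genes had a promoter in the RefSeq table.

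Many genes were detected in 1 tissue only to the limit of counting. At a mean of at least 10 TPM in liver, 139 genes had at most 3 counts over the 4 WAT libraries, 56 of them none. At 10 TPM in WAT, 103 genes had at most 3 counts over the 4 liver libraries, 39 of them none. Some predicted genes in that count reached 10 TPM on very few counts. Gm11172 had 1 count in WAT and 0 in liver, and Gm17545 had 4 in WAT and 0 in liver. Gm21028 had 5 in WAT and 2 in liver, a ratio of 1.04 (95% counting interval 0.289 to 8.61), which shows no tissue difference. Apart from major urinary protein genes, of which Mup2 had 57353 counts in liver and 0 in WAT, the most abundant on the liver side was Apoa5, an apolipoprotein that regulates plasma triglyceride, with 40685 counts in liver and 3 in WAT, a TMM-scaled ratio of 32524 (95% counting interval 11129 to 157714). Counts are rounded estimates summed over the 4 libraries of a tissue. Next came Azgp1, a secreted zinc-binding glycoprotein, with 37097 counts in liver and 2 in WAT, the steroid and retinol dehydrogenases Akr1c6 (31466 and 1) and Rdh7 (38768 and 3), and the P450 enzyme Cyp2d10 (27156 and 2). On the WAT side stood Retnla, a resistin-like secreted protein (3 counts in liver and 17612 in WAT), Adig, a small adipocyte membrane protein (1 and 6124), and Phgdh, the first enzyme of serine synthesis (3 and 17639). They were followed by the cell cycle regulator Rgcc (2 and 7218) and the retinol binding protein Rbp7 (0 and 3917). Rbp7 was at least 544-fold higher in WAT, counted against 3 counts over the liver group. Intervals here cover counting error only.

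Among genes with a mean of at least 50 TPM in the higher tissue and at least 10 counts in the lower one, the largest differences toward liver were those of the acute phase protein Saa2, the fibrinogen chains Fga, Fgg and Fgb, the vitamin D binding protein Gc, hemopexin (Hpx), the S-adenosylmethionine synthase Mat1a, the protease inhibitor Pzp, apolipoprotein A-I (Apoa1) and kininogen (Kng1). Saa2 stood first only with liver replicate 1. Its log2 fold change was 14.90 ± 3.07, and without that library it was 11.72 ± 2.02, adjusted p = 0.00101, below those of the other 9 genes, which were 13.43 to 14.48 in the same fit. Gc averaged 4182 ± 489.6 TPM in liver and 0.743 ± 0.291 TPM in WAT (log2 fold change 14.51 ± 0.38, adjusted p = 1.14e-10). Among the largest toward WAT were Cfd, Adipoq, the amine oxidase Aoc3, Plin1, the imprinted proteolipid Nnat, the protein kinase A subunit Prkar2b, Fabp4, the glutamine carrier Slc1a5 and Trarg1. Cfd, which encodes the complement protease adipsin, had 0.841, 0.636, 0.862 and 1.27 TPM in liver replicates 1 to 4, against 10382, 2855, 11720.4 and 7481 TPM in WAT replicates 1 to 4. WAT replicate 2 was the lowest of the WAT libraries, and every WAT value was still far above any liver value (log2 fold change -11.68 ± 0.62, adjusted p = 2.92e-08). Aoc3 averaged 0.15 ± 0.0849 TPM in liver and 764 ± 96.1 TPM in WAT (log2 fold change -10.86 ± 0.34, adjusted p = 2.66e-10). Trarg1, a regulator of glucose transporter trafficking, averaged 0.0993 ± 0.0515 TPM in liver and 176 ± 21.8 TPM in WAT (log2 fold change -9.31 ± 0.24, adjusted p = 1.14e-10).

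**Figure D2:**
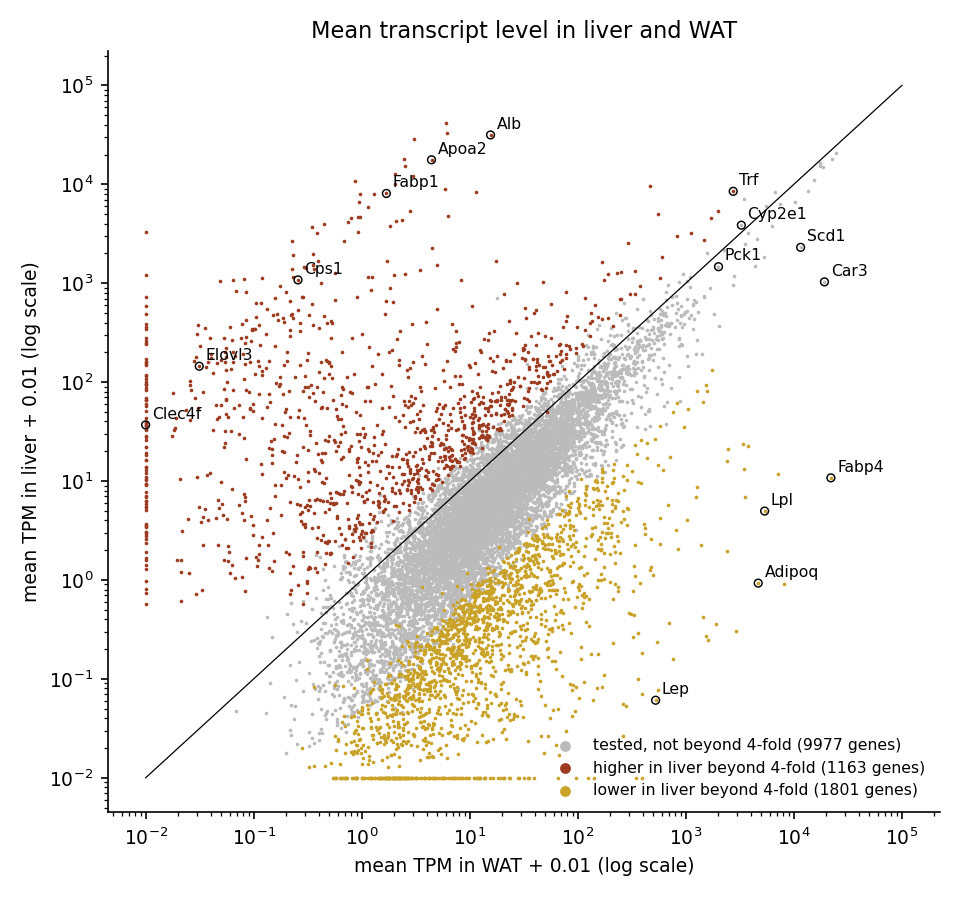
Mean TPM + 0.01 of each tested gene in WAT (horizontal, log scale) and liver (vertical, log scale), with the line of equal TPM. The 1163 genes higher and 1801 lower in liver beyond 4-fold lie on opposite sides of the central cloud, and most of the cloud lies below the line of equal TPM.

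Fatty acid synthesis was divided between the tissues by step. Of 18 listed genes, all tested, 9 were higher and 4 lower in liver, 5 and 1 of them beyond 4-fold, with a median log2 fold change of 0.47 against -0.06 for all tested genes. That median turned negative on library totals (-0.70) and on log2(TPM + 0.1) (-1.01). The enzymes that make palmitate were at higher TPM in WAT. Fasn, the fatty acid synthase, had 27.9, 39, 50.7 and 32.9 TPM in liver replicates 1 to 4, against 86.5, 539, 922 and 1046 TPM in WAT replicates 1 to 4. The lowest WAT value was above every liver value, and the WAT values themselves spread over several fold (log2 fold change -2.65 ± 0.61, adjusted p = 0.00273). Acaca, the acetyl-CoA carboxylase that supplies malonyl-CoA, averaged 23.3 ± 9.44 TPM in liver and 180.4 ± 56.7 TPM in WAT (log2 fold change -1.61 ± 0.28, adjusted p = 0.000356). Acly, the enzyme that provides cytosolic acetyl-CoA, averaged 81.3 ± 30.9 TPM in liver and 200.3 ± 109 TPM in WAT, overlapped between the tissues and did not pass the test (log2 fold change 0.16 ± 0.47, adjusted p = 0.764).

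The desaturases of polyunsaturated fatty acids and the elongases named here showed the opposite lean, while the stearoyl-CoA desaturases Scd1 and Scd2 did not. Fads2 and Fads1, which desaturate polyunsaturated fatty acids, were both higher in liver. Fads2 averaged 267 ± 39.5 TPM in liver and 14.8 ± 3.48 TPM in WAT (log2 fold change 5.61 ± 0.24, adjusted p = 3.45e-09). Fads1 averaged 173 ± 18.7 TPM in liver and 38.4 ± 11.4 TPM in WAT (log2 fold change 3.65 ± 0.22, adjusted p = 5.24e-08). Elovl5, their partner elongase, was higher in liver (3.05 ± 0.19), and so was Elovl6, which extends palmitate (2.92 ± 0.48). Elovl3, an elongase of very long chains known from brown fat and skin, had 141, 123, 104 and 212 TPM in liver, against 0, 0.0854, 0 and 0 TPM in WAT. It was read 6984 times in liver and 1 time in WAT, a ratio of 16749.5 (95% counting interval 3006 to 661570.0). Scd2, a second stearoyl-CoA desaturase, was lower in liver, at 0.904 ± 0.252 TPM in liver and 102 ± 68.1 TPM in WAT (log2 fold change -5.37 ± 0.75, adjusted p = 0.00012). Scd1, the main stearoyl-CoA desaturase of both tissues, had 809, 2747, 3566 and 2098 TPM in liver replicates 1 to 4, against 5766, 12219.8, 13070.3 and 15132 TPM in WAT replicates 1 to 4. No liver value reached the lowest WAT value, yet on TMM-scaled counts the difference did not pass the test (log2 fold change -0.87 ± 0.44, adjusted p = 0.0915). It passed, lower in liver, without liver replicate 3 (-1.18 ± 0.47, adjusted p = 0.0432) or without WAT replicate 1 (-1.09 ± 0.43, adjusted p = 0.0417), and also with upper-quartile factors (adjusted p = 0.0358), in DESeq2 (0.0339), on library totals (0.000883) and in limma on log2(TPM + 0.1) (0.00062), so the missing call depended on the scale, the tool and single libraries. Thrsp, a lipogenic accessory protein, averaged 282 ± 228 TPM in liver and 863 ± 382 TPM in WAT and overlapped between tissues (adjusted p = 0.841). It was called lower in liver by limma on log2(TPM + 0.1) (-1.85 ± 0.53, adjusted p = 0.00758). The edgeR contrast of CTRL HSD mice also called it lower (-1.04 ± 0.25, adjusted p = 0.00293).

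NADPH, the reductant of fatty acid synthesis, comes from the pentose phosphate pathway, malic enzyme and isocitrate dehydrogenase. Of 8 tested genes among 9 listed, 6 were lower and 2 higher in liver, and 1, G6pdx, was lower beyond 4-fold. G6pdx, which opens the pentose phosphate pathway, had 2.34, 2.66, 3.63 and 2.1 TPM in liver replicates 1 to 4, against 177, 232, 199 and 201 TPM in WAT replicates 1 to 4, a gap of nearly 2 orders of magnitude with narrow spread in each tissue (log2 fold change -4.69 ± 0.17, adjusted p = 1.04e-09). Pgd, the next oxidative step, averaged 16.3 ± 4.65 TPM in liver and 226 ± 89.9 TPM in WAT (log2 fold change -2.34 ± 0.32, adjusted p = 7.19e-05). Malic enzyme, Me1, averaged 65.3 ± 18.3 TPM in liver and 321 ± 132 TPM in WAT (log2 fold change -0.84 ± 0.34, adjusted p = 0.0437). That call was lost on leaving out any of 6 single libraries (liver replicate 1, 2 or 4, or WAT replicate 2, 3 or 4), with adjusted p from 0.0742 to 0.123 in edgeR.

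Triglyceride synthesis showed no common direction. Of 18 tested genes among 19 listed, 6 were higher and 6 lower in liver, 2 and 5 beyond 4-fold. Of all tested genes, 35% were higher and 38.5% lower, 8.99% and 13.9% beyond 4-fold. The list median of 0.18 changed sign with upper-quartile factors (-0.11), library totals (-0.98) and log2(TPM + 0.1) (-1.09). Lpin2, a phosphatidate phosphatase, averaged 86.5 ± 23.4 TPM in liver and 4.71 ± 0.43 TPM in WAT (log2 fold change 5.61 ± 0.23, adjusted p = 2.18e-09). The acyl-CoA synthetase Acsl5 averaged 223 ± 66.4 TPM in liver and 31 ± 1.62 TPM in WAT (log2 fold change 3.26 ± 0.21, adjusted p = 1.04e-07). Toward WAT stood Dgat1, one of the enzymes of the final step (7.54 ± 1.12 TPM in liver and 118 ± 20.9 TPM in WAT; log2 fold change -2.52 ± 0.16, adjusted p = 7.33e-08), the glycerol phosphate acyltransferase Gpat3 (-3.37 ± 0.48) and the monoacylglycerol acyltransferase Mogat1 (-6.65 ± 0.50). Dgat2, Gpam and Gpd1, enzymes for the last step, the first acylation and the supply of glycerol phosphate, averaged 230.3 against 865 TPM, 48.2 against 117 TPM and 124 against 347 TPM in liver against WAT. None of these 3 passed the test (adjusted p = 0.166, 0.731 and 0.817). Dgat2 passed it without WAT replicate 1 (-0.71 ± 0.18, adjusted p = 0.00586) and with upper-quartile factors (adjusted p = 0.0369). On library totals all 3 were lower in liver, with log2 fold changes of -1.62 for Dgat2, -1.23 for Gpam and -1.20 for Gpd1 (adjusted p = 0.000282, 8.75e-05 and 0.00013 in edgeR), and limma on log2(TPM + 0.1) called them lower as well. By mean TPM, Dgat2 held 96.8% of the sum of Dgat2 and Dgat1 in liver and 88.0% in WAT. Gpam held 96.3% of the sum of Gpam and Gpat3 in liver and 64.8% in WAT.

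Lipid droplet coats and lipases differed more sharply. Of 20 tested genes among 21 listed, 7 were higher and 11 lower in liver, 5 and 6 beyond 4-fold. Plin1, the perilipin that guards the adipocyte droplet, had 0.322, 0, 0.283 and 0.444 TPM in liver replicates 1 to 4, against 1346, 1187, 1790.3 and 1802 TPM in WAT replicates 1 to 4. Its liver values were near 0 in all 4 libraries (log2 fold change -10.77 ± 0.47, adjusted p = 4.11e-09). Cidec, which fuses droplets into a single large one, averaged 6.94 ± 2.75 TPM in liver and 3509 ± 243 TPM in WAT (log2 fold change -8.23 ± 0.30, adjusted p = 8.39e-10). Plin4 averaged 2.26 ± 0.776 TPM in liver and 1374 ± 128 TPM in WAT (log2 fold change -7.82 ± 0.31, adjusted p = 1.58e-09). Hormone-sensitive lipase, Lipe, averaged 6.89 ± 2.2 TPM in liver and 1244 ± 199 TPM in WAT (log2 fold change -5.40 ± 0.24, adjusted p = 3.91e-09). The triglyceride lipase Pnpla2 averaged 9.67 ± 6.09 TPM in liver and 359 ± 78.3 TPM in WAT (log2 fold change -3.96 ± 0.37, adjusted p = 5.34e-06). Monoglyceride lipase, Mgll, was lower in liver without passing the 4-fold test (-2.04 ± 0.20), and so was the carboxylesterase Ces1d (-1.47 ± 0.36).

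The droplet genes of liver were different family members. Plin2, the perilipin of most non-adipose cells, averaged 426 ± 162 TPM in liver and 257 ± 39 TPM in WAT, with overlapping TPM ranges (log2 fold change 2.23 ± 0.26, adjusted p = 1.23e-05). Plin5, the perilipin of oxidative tissues, averaged 32 ± 9.58 TPM in liver and 3.82 ± 1.31 TPM in WAT (log2 fold change 4.49 ± 0.27, adjusted p = 6.46e-08). Cideb, the CIDE protein of VLDL-secreting hepatocytes, had 228, 264, 217 and 255 TPM in liver, against 0, 0, 0 and 0 TPM in WAT. No WAT library had a count of it. Hsd17b13, a droplet-bound enzyme of hepatocytes, averaged 352 ± 82.8 TPM in liver and 0.389 ± 0.189 TPM in WAT (log2 fold change 10.79 ± 0.28, adjusted p = 1.14e-10). Aadac, an esterase of the endoplasmic reticulum, averaged 538 ± 64.5 TPM in liver and 0.248 ± 0.131 TPM in WAT (log2 fold change 12.55 ± 0.28, adjusted p = 6.67e-11). Pnpla3, a droplet-bound lipase and acyltransferase relative of Pnpla2, had 0.125, 0.204, 1.14 and 0.35 TPM in liver replicates 1 to 4, against 193, 219.5, 410.2 and 357 TPM in WAT replicates 1 to 4. In these mice every WAT library was far above the highest liver value (log2 fold change -7.88 ± 0.46, adjusted p = 1.12e-07).

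Uptake proteins for fatty acids and glycerol were almost fully exchanged. Of 16 tested genes among 19 listed (1 of which is not analysed here), 7 were higher and 8 lower in liver, all but 1 of them beyond 4-fold. Lpl, the lipase that frees fatty acids from circulating lipoproteins, had 4.71, 4.27, 6.46 and 4.4 TPM in liver replicates 1 to 4, against 4040.1, 6016, 5639.9 and 5741 TPM in WAT replicates 1 to 4. The groups did not overlap, and liver held 0.0926% of the WAT level (log2 fold change -8.63 ± 0.31, adjusted p = 8.14e-10). Cd36, a fatty acid translocase, averaged 13.3 ± 3.3 TPM in liver and 3421 ± 404 TPM in WAT (log2 fold change -6.55 ± 0.24, adjusted p = 8.39e-10). The caveolar protein Cav1 averaged 1.97 ± 0.379 TPM in liver and 2419 ± 396 TPM in WAT (log2 fold change -8.78 ± 0.28, adjusted p = 3.62e-10). Vldlr, a lipoprotein receptor, averaged 0.114 ± 0.0802 TPM in liver and 21.1 ± 6.81 TPM in WAT (log2 fold change -5.997 ± 0.43, adjusted p = 4.74e-07). Fabp1 had 5114, 11098, 7513 and 8603 TPM in liver replicates 1 to 4, against 2.16, 1.08, 2.46 and 1.02 TPM in WAT replicates 1 to 4, the mirror image of Fabp4 (log2 fold change 13.62 ± 0.45, adjusted p = 4.28e-10). The transport proteins and very long chain acyl-CoA synthetases Slc27a2 and Slc27a5 averaged 729 TPM in liver and 0.276 TPM in WAT and 473 TPM in liver and 0.209 TPM in WAT, against 0.837 TPM in liver and 149.5 TPM in WAT for Slc27a1, the insulin-responsive fat and muscle form. Glycerol channels followed suit. Aqp9, through which liver takes up glycerol, averaged 159 ± 3.61 TPM in liver and 2.99 ± 1.24 TPM in WAT (log2 fold change 7.25 ± 0.27, adjusted p = 1.05e-09). Aqp7, through which adipocytes release it, averaged 0.17 ± 0.146 TPM in liver and 134 ± 28.4 TPM in WAT (log2 fold change -8.22 ± 0.36, adjusted p = 4.48e-09). Hepatic lipase, Lipc, averaged 168 ± 22.2 TPM in liver and 0.301 ± 0.397 TPM in WAT (log2 fold change 10.998 ± 0.32, adjusted p = 1.99e-10).

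Glucose enters each tissue through its own set of proteins. Of 31 tested glycolysis genes, 18 were higher and 9 lower in liver, 10 and 8 beyond 4-fold. The list median of 0.72 was negative on library totals (-0.44) and log2(TPM + 0.1) (-0.71), so the direction of the list as a whole depended on the scale. The transporter Slc2a2 (GLUT2) had 35.9, 61.8, 56.9 and 52.4 TPM in liver, against 0.106, 0.304, 0.171 and 0.426 TPM in WAT. The insulin-responsive Slc2a4 (GLUT4) had 0.339, 0.393, 1.19 and 0.116 TPM in liver, against 102, 108, 118 and 109.8 TPM in WAT. The transporters traded places with no overlap in either (9.09 ± 0.34 and -6.95 ± 0.27). Hexokinase 2, Hk2, which opens glycolysis in fat and muscle, averaged 0.212 ± 0.131 TPM in liver and 29.2 ± 3.88 TPM in WAT (log2 fold change -5.74 ± 0.31, adjusted p = 2.91e-08).

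Khk and Tkfc, a pair of fructose-metabolizing kinases, were higher in liver and detected in WAT. Ketohexokinase, Khk, averaged 272 ± 51 TPM in liver and 13.5 ± 4.45 TPM in WAT (log2 fold change 6.22 ± 0.30, adjusted p = 8.91e-09). The triose kinase Tkfc averaged 212 ± 45.7 TPM in liver and 12.5 ± 0.702 TPM in WAT (log2 fold change 5.47 ± 0.19, adjusted p = 6.76e-10). Aldoa, the aldolase of glycolysis in most tissues, was lower in liver and averaged 81.9 ± 16.3 TPM in liver and 1259 ± 278 TPM in WAT (log2 fold change -2.53 ± 0.18, adjusted p = 2.5e-07). Pklr, the liver and red cell pyruvate kinase that the study mutated in its other arm, had 61.6, 139, 141 and 110.3 TPM in liver replicates 1 to 4, against 0.811, 0, 0.0516 and 0.0652 TPM in WAT replicates 1 to 4. Every liver value was above 50 TPM and every WAT value below 1 TPM (log2 fold change 10.22 ± 0.68, adjusted p = 3.7e-07). Pkm, the pyruvate kinase of most other tissues, had 6.88, 5.08, 5.71 and 4.43 TPM in liver replicates 1 to 4, against 164, 218, 267 and 242 TPM in WAT replicates 1 to 4 (log2 fold change -3.81 ± 0.18, adjusted p = 5.92e-09). Pfkfb3, a bifunctional activator of phosphofructokinase, and the lactate dehydrogenase Ldhb were lower in liver (-3.38 ± 0.38 and -3.67 ± 0.15).

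Glucose production was a liver program except at a shared first step. Of 19 tested genes of gluconeogenesis and glycogen among 20 listed, 12 were higher and 6 lower in liver, 6 and 4 beyond 4-fold, and the median of 0.99 turned negative on library totals (-0.18) and log2(TPM + 0.1) (-0.45). G6pc, the glucose 6-phosphatase that lets glucose leave the cell, had 244, 423, 264 and 446 TPM in liver, against 0.065, 0.16, 0.063 and 0.0763 TPM in WAT (log2 fold change 13.11 ± 0.41, adjusted p = 3.26e-10). Fbp1, fructose bisphosphatase, averaged 675 ± 84 TPM in liver and 0.56 ± 0.268 TPM in WAT (log2 fold change 12.23 ± 0.26, adjusted p = 6.61e-11). The glucose 6-phosphate carrier Slc37a4 followed at 127 ± 24.5 TPM in liver and 17.3 ± 1.96 TPM in WAT (log2 fold change 4.39 ± 0.17, adjusted p = 1.39e-09). Pck1, the phosphoenolpyruvate carboxykinase used for glucose in liver and for glyceride-glycerol in fat, had 1362, 1641, 1332 and 1539 TPM in liver replicates 1 to 4, against 2288, 1977, 1716 and 2039.8 TPM in WAT replicates 1 to 4. The TPM ranges did not overlap and put WAT above liver, while the TMM-scaled fold change put liver above WAT (log2 fold change 0.99 ± 0.19, adjusted p = 0.000607), so its direction depended on the scale. Glycogen synthase was Gys2 in liver (114 ± 42 TPM in liver and 7.3 ± 4.51 TPM in WAT; log2 fold change 5.32 ± 0.58, adjusted p = 1.6e-05) and Gys1 in WAT (0.962 ± 0.433 TPM in liver and 53.6 ± 11.7 TPM in WAT; log2 fold change -4.55 ± 0.27, adjusted p = 6.18e-08). The liver phosphorylase Pygl was abundant in both, at 203 ± 34.5 TPM in liver and 139 ± 8.47 TPM in WAT (log2 fold change 1.99 ± 0.17, adjusted p = 8.91e-07). Pygb, the brain form, averaged 0.987 ± 0.255 TPM in liver and 163 ± 23.4 TPM in WAT (log2 fold change -5.93 ± 0.18, adjusted p = 2.59e-10). Ppp1r3b, which brings a phosphatase to hepatic glycogen, was higher in liver (5.93 ± 0.19).

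**Figure D3:**
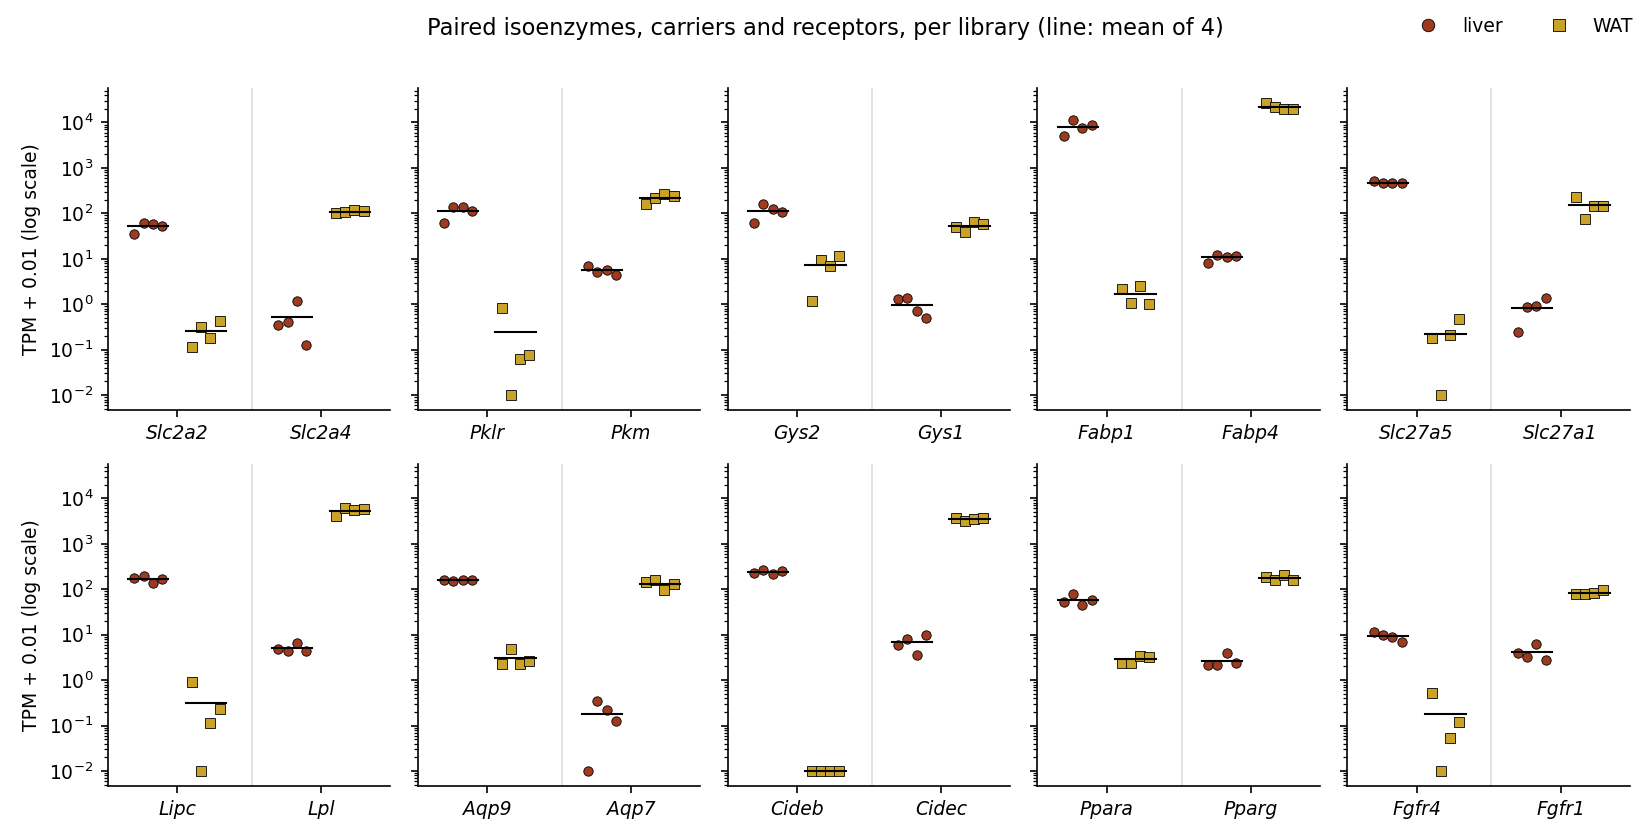
TPM + 0.01 (log scale) in each library for 10 of the 13 pairs of related genes in which both members passed the 4-fold test; in each panel the left gene is the liver member and the right gene the fat member, with liver circles left of WAT squares and a line at the mean of 4. The pairs were picked for this opposition, and circles stand above squares for the left genes and below them for the right genes.

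Across 23 pairs of related genes, chosen for their known use in liver or fat, the liver member was higher and the fat member lower in 15, and both passed the 4-fold test in 13. Plin2 with Plin1 and Pygl with Pygm made up the difference between those counts. Of the 8 other pairs, Scd1 with Scd2, Dgat2 with Dgat1 and Gpam with Gpat3 had a liver member that did not pass the test, and in those of acetyl-CoA carboxylase, carnitine palmitoyltransferase 1, lipin and thyroid hormone receptor 1 member did not pass it either. Fbp2, the muscle partner of Fbp1, had no count in liver, averaged 1.75 TPM in WAT and was too low to test.

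Fatty acid oxidation and ketone body synthesis leaned to liver. Of 27 tested genes, 24 were higher and 2 lower, 13 and 1 beyond 4-fold, with a median of 1.89 that stayed positive on library totals (0.73) and log2(TPM + 0.1) (0.45). Bdh1, which interconverts the ketone bodies, averaged 92.6 ± 14.6 TPM in liver and 0.332 ± 0.0917 TPM in WAT (log2 fold change 9.42 ± 0.23, adjusted p = 7.92e-11). Oxct1, the enzyme that lets a tissue burn ketone bodies and that hepatocytes are known to lack, had 1.31, 1.37, 1.35 and 1.39 TPM in liver replicates 1 to 4, against 125, 208, 161 and 201 TPM in WAT replicates 1 to 4. It was the 1 member lower in liver beyond 4-fold (log2 fold change -5.59 ± 0.20, adjusted p = 7.43e-10). Cpt1a, the gate of mitochondrial entry, averaged 158 ± 32.7 TPM in liver and 41.9 ± 7.16 TPM in WAT (log2 fold change 3.34 ± 0.18, adjusted p = 2.09e-08). Cyp4a10 and Cyp4a14, omega-hydroxylases induced by PPAR-alpha, varied widely in liver. Cyp4a10 had 131, 308, 12.3 and 183 TPM in the 4 liver libraries, against a WAT mean of 0.407 TPM (log2 fold change 9.99 ± 1.08, adjusted p = 1.99e-05). Cyp4a14 had 57.6, 83.5, 1.17 and 23.7 TPM in the 4 liver libraries and 1 count in WAT.

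The shared oxidative machinery gave, as a list, no direction that survived a change of scale. Of 39 nuclear-encoded respiratory chain genes, 35 were higher in liver with TMM and 1 passed the 4-fold test. On library totals 1 was higher and 16 lower, and on log2(TPM + 0.1) 1 was higher and 28 lower. Cox4i1, a cytochrome oxidase subunit, averaged 479 ± 58.9 TPM in liver and 895 ± 157 TPM in WAT, with a fold change (log2 fold change 0.54 ± 0.16, adjusted p = 0.0104) that reversed on both scales. Atp5g1, one of the genes for the c subunit of ATP synthase, was higher in liver beyond 4-fold, at 335 ± 27.2 TPM in liver and 116 ± 15.9 TPM in WAT (log2 fold change 2.596 ± 0.12, adjusted p = 6.3e-09). Of 28 genes of pyruvate oxidation and the tricarboxylic acid cycle, 14 were higher and 9 lower, 1 and 3 beyond 4-fold, and the median of 0.28 was negative with upper-quartile factors (-0.00086), library totals (-0.88) and log2(TPM + 0.1) (-1.08). Citrate synthase, Cs, averaged 46.7 ± 3.06 TPM in liver and 269 ± 27.8 TPM in WAT (log2 fold change -1.09 ± 0.12, adjusted p = 8.66e-06). The pyruvate dehydrogenase kinase Pdk4 was lower in liver (-3.16 ± 0.26). Of 18 genes of branched-chain amino acid breakdown, 6 were higher and 5 lower, beside 35% and 38.5% of all tested genes. The mitochondrial transaminase Bcat2, which starts that pathway, averaged 29.9 ± 4.19 TPM in liver and 168 ± 42.5 TPM in WAT (log2 fold change -0.80 ± 0.19, adjusted p = 0.00226). Its cytosolic counterpart Bcat1 had no count in any liver library and 278 in WAT. The list median of 0.09 was negative with upper-quartile factors (-0.20), library totals (-1.07) and log2(TPM + 0.1) (-1.30).

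Nitrogen disposal and amino acid breakdown were largely the province of liver. Of 34 tested genes, 32 were higher in liver, 28 of them beyond 4-fold, and 1 was lower. The median was 9.91, or 9.06 with genes that had no WAT count held at 3 counts over the WAT group. Cps1, the entry to the urea cycle, had 861, 1129.5, 1156 and 1173 TPM in liver replicates 1 to 4, against 0.4, 0.218, 0.182 and 0.188 TPM in WAT replicates 1 to 4, with liver replicate 1 the lowest (log2 fold change 13.50 ± 0.40, adjusted p = 2.23e-10). Otc, the next enzyme, averaged 239 ± 30 TPM in liver and 0.104 ± 0.0911 TPM in WAT (log2 fold change 12.52 ± 0.32, adjusted p = 9.8e-11). Ass1 averaged 2248 ± 429.7 TPM in liver and 4.46 ± 1.31 TPM in WAT (log2 fold change 10.42 ± 0.38, adjusted p = 9.5e-10). Arginase, Arg1, averaged 1245 ± 108 TPM in liver and 2.5 ± 1.98 TPM in WAT (log2 fold change 10.39 ± 0.61, adjusted p = 8.76e-08). The tyrosine breakdown enzymes Tat and Hpd averaged 1158 TPM in liver and 1.24 TPM in WAT and 1688 TPM in liver and 1.7 TPM in WAT. Glutamine synthetase, Glul, was shared, at 393 ± 79.1 TPM in liver and 887 ± 112 TPM in WAT, and did not pass the test (log2 fold change 0.28 ± 0.21, adjusted p = 0.255).

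Cholesterol synthesis and uptake were higher in liver at most steps. Of 26 tested genes, 20 were higher and 2 lower, 13 and 1 beyond 4-fold, and the median of 2.36 stayed positive on library totals (1.18) and log2(TPM + 0.1) (1.07). Fdps, which makes farnesyl diphosphate, averaged 290.2 ± 133 TPM in liver and 49.8 ± 21.1 TPM in WAT (log2 fold change 4.04 ± 0.46, adjusted p = 2.04e-05). Abcg1, which exports cholesterol to high density lipoprotein, ran the other way at 1.19 ± 0.499 TPM in liver and 21 ± 4.7 TPM in WAT (log2 fold change -2.78 ± 0.25, adjusted p = 1.39e-06).

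All 20 listed bile acid genes were higher in liver beyond 4-fold, with a median of 10.29, or 10.03 with the 1 gene at no WAT count held at 3 counts. Cyp7a1, the rate-limiting enzyme of bile acid synthesis, had 4.97, 5.58, 57.1 and 45.7 TPM in the 4 liver libraries, a wide spread for animals of 1 group, and 1 count over the WAT libraries. Cyp8b1, which sets the share of cholic acid, averaged 168 ± 103 TPM in liver and 0.455 ± 0.0694 TPM in WAT (log2 fold change 9.92 ± 0.78, adjusted p = 1.27e-06). The uptake carrier Slc10a1 and the export pump Abcb11 averaged 444 ± 85.6 TPM in liver and 0.22 ± 0.105 TPM in WAT and 174 ± 11.7 TPM in liver and 0.03 ± 0.0246 TPM in WAT. Of 32 xenobiotic genes, all were higher in liver on TMM-scaled counts, 23 beyond 4-fold, with a median of 8.36. Cyp3a11, Cyp1a2 and Cyp2d9, drug-metabolizing P450 enzymes, had 25559, 16880 and 47488 counts in liver and 3, 1 and 5 in WAT. Cyp2e1, the ethanol-oxidizing P450 usually taken as a hepatocyte gene, had 4241, 4307, 3689 and 3204 TPM in liver replicates 1 to 4, against 3723, 2148, 3548 and 3638 TPM in WAT replicates 1 to 4. The TPM ranges of the tissues overlapped, and the gene did not pass the 4-fold test (log2 fold change 1.67 ± 0.23, adjusted p = 5.3e-05). That call was lost on library totals (0.51, adjusted p = 0.056 in edgeR) and on log2(TPM + 0.1) (0.27, adjusted p = 0.283 in limma).

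**Figure D4:**
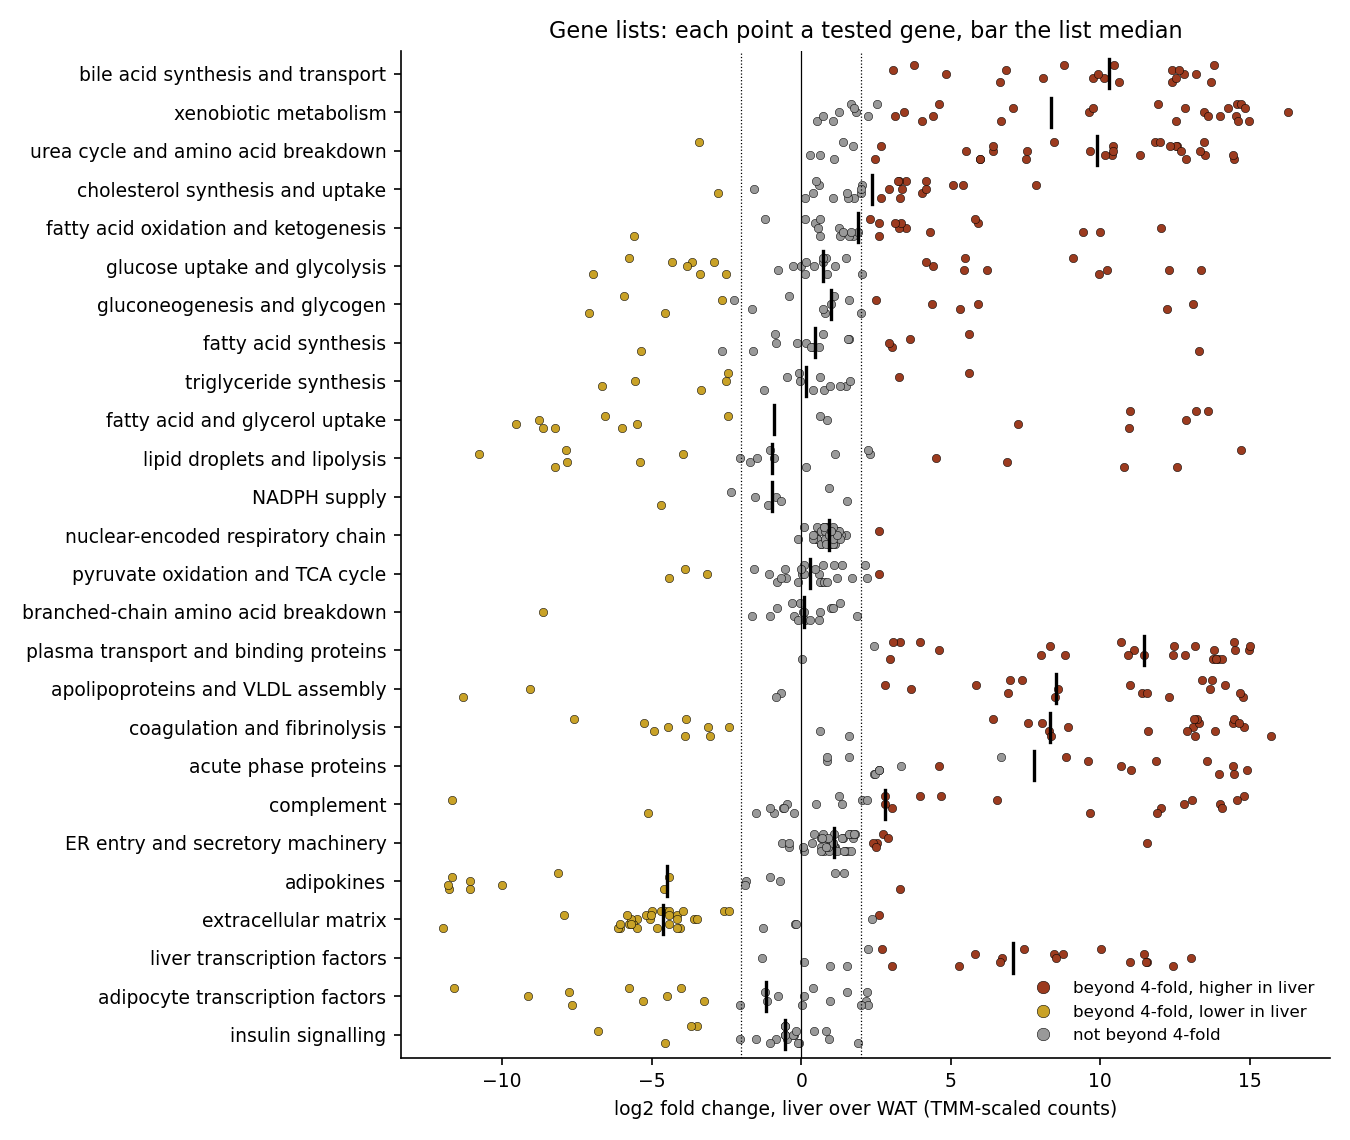
Log2 fold change of liver over WAT (horizontal axis, TMM-scaled counts) for every tested gene of 26 lists, with a black bar at the list median and dotted lines at a 4-fold difference; genes with no count in 1 tissue stand at their fitted value, which is not a bound. Bile acid, xenobiotic, amino acid and plasma protein lists reach far to the right, adipokines and extracellular matrix lie to the left, and respiratory chain, tricarboxylic acid cycle and branched-chain lists cluster within the dotted lines.

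Plasma proteins were overwhelmingly liver products, with a few shared ones. Of 27 tested carrier and binding proteins among 28 listed, 26 were higher in liver, 25 beyond 4-fold. Their median was 11.48, or 11.12 with 2 genes at their count limit. Transthyretin, Ttr, averaged 4545 ± 1513 TPM in liver and 0.783 ± 0.25 TPM in WAT (log2 fold change 13.89 ± 0.45, adjusted p = 3.49e-10). The fetuin Ahsg averaged 5926 ± 374 TPM in liver and 1.13 ± 0.414 TPM in WAT (log2 fold change 13.77 ± 0.37, adjusted p = 1.34e-10). The serpin Serpina3k averaged 8297 ± 1111 TPM in liver and 11.5 ± 2.47 TPM in WAT (log2 fold change 10.94 ± 0.38, adjusted p = 5.71e-10). Transferrin, Trf, had 14444, 6438, 7586 and 5505 TPM in liver replicates 1 to 4, against 2882, 2498, 2657 and 2938 TPM in WAT replicates 1 to 4. Liver was higher, and WAT held 32.3% of the liver level (log2 fold change 3.07 ± 0.32, adjusted p = 5.89e-06). Retinol binding protein, Rbp4, and selenoprotein P, Selenop, were likewise abundant in both tissues. Rbp4 averaged 3009 ± 551 TPM in liver and 831 ± 130.4 TPM in WAT (log2 fold change 3.31 ± 0.20, adjusted p = 5.94e-08). Selenop averaged 3234 ± 468 TPM in liver and 1106 ± 117 TPM in WAT (log2 fold change 2.98 ± 0.20, adjusted p = 1.14e-07). Haptoglobin, Hp, had 19366, 2018, 4318 and 2529 TPM in liver replicates 1 to 4, against 4316, 1958, 4423 and 3051 TPM in WAT replicates 1 to 4. The highest liver value was that of replicate 1 and the ranges overlapped (log2 fold change 2.44 ± 0.69, adjusted p = 0.00906). Without liver replicate 1 the fold change of Hp was 1.25 ± 0.36, adjusted p = 0.00978. The call was lost on library totals (1.29, adjusted p = 0.108 in edgeR), on log2(TPM + 0.1) (0.48, adjusted p = 0.487 in limma) and in the tissue contrast of KO chow mice (0.35, adjusted p = 0.229 in edgeR).

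Apolipoproteins and VLDL assembly followed the same division. Of 22 tested genes, 18 were higher in liver, all beyond 4-fold, and 4 were lower, 2 beyond 4-fold. Apob, the structural protein of VLDL, had 766, 764, 696 and 639 TPM in liver replicates 1 to 4, against 0.145, 0.12, 0.0708 and 0.257 TPM in WAT replicates 1 to 4 (log2 fold change 13.65 ± 0.40, adjusted p = 1.9e-10). Mttp, which loads it with triglyceride, averaged 112 ± 12.6 TPM in liver and 2.69 ± 0.989 TPM in WAT (log2 fold change 6.98 ± 0.28, adjusted p = 1.72e-09). Apoa2, the second protein of high density lipoprotein, averaged 17686 ± 3146 TPM in liver and 4.42 ± 1.33 TPM in WAT (log2 fold change 13.41 ± 0.36, adjusted p = 1.34e-10). Apoe and Apoc1 were lower in WAT but not scarce there. Apoe averaged 4569 ± 975 TPM in liver and 1693 ± 696 TPM in WAT (log2 fold change 2.80 ± 0.32, adjusted p = 1.19e-05). Apoc1 averaged 9634 ± 1795 TPM in liver and 462 ± 175 TPM in WAT (log2 fold change 5.83 ± 0.34, adjusted p = 3.82e-08). Among the genes that ran the other way, Apol6, an intracellular member of the apolipoprotein L family, had 0, 0.0534, 0.156 and 0.685 TPM in liver replicates 1 to 4, against 683, 497, 479 and 495 TPM in WAT replicates 1 to 4 (log2 fold change -11.32 ± 0.37, adjusted p = 3.68e-10). Apod, a lipocalin, had no liver count and 369 counts in WAT.

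Clotting factors were higher in liver, and several vascular regulators were higher in WAT. Of 30 tested genes, 21 were higher in liver, 19 beyond 4-fold, and 9 were lower, all beyond 4-fold. Prothrombin, F2, averaged 937 ± 99.5 TPM in liver and 0.164 ± 0.106 TPM in WAT (log2 fold change 13.84 ± 0.35, adjusted p = 9.8e-11). The fibrinogen gene Fgb averaged 1906 ± 893 TPM in liver and 0.223 ± 0.21 TPM in WAT (log2 fold change 14.43 ± 0.69, adjusted p = 9.1e-09). The lower set held thrombomodulin, Thbd (1.11 ± 0.0378 TPM in liver and 115 ± 22.8 TPM in WAT; log2 fold change -5.26 ± 0.17, adjusted p = 3.95e-10), urokinase, Plau (-4.44 ± 0.21), von Willebrand factor, Vwf (-3.84 ± 0.48), and the A subunit of factor XIII, F13a1 (-7.60 ± 0.31). Thbd and Vwf are endothelial genes, and the endothelial marker lists described below were lower in liver too; their part in these differences was not tested.

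Complement was shared more evenly. Of 29 tested genes, 20 were higher and 8 lower in liver, 15 and 2 beyond 4-fold. C9, which completes the membrane attack pore, had 31607 counts in liver and 2 in WAT. C3, the central component, averaged 1852 ± 1230.0 TPM in liver and 604 ± 48.8 TPM in WAT (log2 fold change 3.05 ± 0.38, adjusted p = 2.31e-05). Factor B, Cfb, averaged 775 ± 401 TPM in liver and 304 ± 27.7 TPM in WAT (log2 fold change 2.81 ± 0.30, adjusted p = 6.26e-06), so WAT carried both as well. Beside Cfd, the member lower in liver beyond 4-fold was C7, a pore component, at 0.946 ± 0.53 TPM in liver and 88.6 ± 47.1 TPM in WAT (log2 fold change -5.14 ± 0.57, adjusted p = 1.86e-05). The summed level of the complement list was 6297 to 12515 TPM in liver and 6180 to 15120 TPM in WAT, where Cfd averaged 8109.6 TPM.

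Acute phase genes were higher in liver at levels set largely by 1 library. Of 20 tested genes, 16 were higher in liver, 11 beyond 4-fold, and their summed level was 150885 TPM in liver replicate 1 and from 10307.5 TPM upward in the other liver libraries, against 3698 to 6501 TPM in WAT. Orm1, an acid glycoprotein, had 14224, 935, 3115 and 1794 TPM in liver replicates 1 to 4, against 358, 658, 504 and 684 TPM in WAT replicates 1 to 4 (log2 fold change 4.61 ± 0.80, adjusted p = 0.000463). Hamp, which encodes the iron hormone hepcidin, had 9761, 3886, 2537 and 2507 TPM in liver, against 2.96, 0, 0 and 0.881 TPM in WAT (log2 fold change 13.56 ± 0.81, adjusted p = 1.31e-07). Without liver replicate 1 the fold change was 11.37 ± 1.74, adjusted p = 0.000502 for Saa1 and 11.72 ± 2.02, adjusted p = 0.00101 for Saa2, and it was 3.34 ± 0.40, adjusted p = 4.66e-05 for Orm1. Hpx, which binds heme, had 21171, 2280.1, 5939 and 2797 TPM in the 4 liver libraries and a WAT mean of 0.949 TPM, and its fold change without that library was 13.43 ± 0.64, adjusted p = 5.72e-08. Trf gave 2.72 ± 0.20, adjusted p = 8.31e-07, C3 2.52 ± 0.18, adjusted p = 5.76e-07 and Hamp 12.99 ± 0.45, adjusted p = 3.05e-09 when that library was left out.

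WAT had a secretory profile of its own. Of 16 tested adipokine genes among 17 listed, 12 were lower and 3 higher in liver, 9 and 1 beyond 4-fold, with a median of -4.50. Leptin, Lep, the satiety hormone, had 0.0446, 0.0368, 0.0799 and 0.042 TPM in liver replicates 1 to 4, against 507, 669, 474 and 449.7 TPM in WAT replicates 1 to 4 (log2 fold change -11.79 ± 0.28, adjusted p = 7.61e-11). Resistin, Retn, had 0.229, 0.177, 0.202 and 0.585 TPM in liver replicates 1 to 4, against 2312, 2174, 3775 and 3291 TPM in WAT replicates 1 to 4 (log2 fold change -11.81 ± 0.38, adjusted p = 3.7e-10). Both were close to 0 in every liver library. Rarres2, which encodes the adipokine chemerin, had overlapping TPM ranges, at 725 ± 75.9 TPM in liver and 743 ± 62.6 TPM in WAT. Its TMM-scaled fold change favoured liver (log2 fold change 1.44 ± 0.13, adjusted p = 2.06e-06) and that on log2(TPM + 0.1) did not (-0.04). Agt, angiotensinogen, was also shared, at 327 ± 79 TPM in liver and 291 ± 109.9 TPM in WAT (log2 fold change 1.59 ± 0.29, adjusted p = 0.000498). Of 21 tested hepatokines among 24 listed (1 of them not analysed here), all were higher in liver, 17 beyond 4-fold. The IGF binding protein Igfbp2 averaged 199.9 ± 67.5 TPM in liver and 12.6 ± 9.78 TPM in WAT (log2 fold change 5.46 ± 0.55, adjusted p = 8.09e-06). Igf1, the growth factor itself, was closer between tissues at 376 ± 29.9 TPM in liver and 156 ± 27 TPM in WAT (log2 fold change 1.79 ± 0.14, adjusted p = 5.97e-07). Angptl4, a lipase inhibitor made in fat and liver, averaged 12.5 ± 3.94 TPM in liver and 53.1 ± 10.1 TPM in WAT (log2 fold change -0.66 ± 0.22, adjusted p = 0.0204). The call was lost without WAT replicate 1 (-0.57 ± 0.24, adjusted p = 0.0557) or 2 (-0.62 ± 0.25, adjusted p = 0.0503).

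General secretory machinery differed little beside its cargo. Of 42 tested genes for entry into and passage through the endoplasmic reticulum, 37 were higher and 3 lower in liver, 6 and 0 beyond 4-fold, and the median of 1.09 changed sign on library totals (-0.07) and log2(TPM + 0.1) (-0.36). The members higher beyond 4-fold included Sar1b and Mia2, which serve the export of lipoprotein-sized cargo (2.91 ± 0.12 and 2.72 ± 0.15), the cargo receptor Lman1 (2.52 ± 0.13), the disulfide isomerase P4hb (2.40 ± 0.17) and the hepatocyte transcription factor Creb3l3 (11.58 ± 0.36).

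Extracellular matrix was the counterpart of plasma protein in WAT. Of 36 tested genes, 32 were lower in liver, 31 beyond 4-fold, with a median of -4.62 and a summed level of 546 to 669 TPM in liver against 8428 to 10644 TPM in WAT. Sparc, a collagen-binding glycoprotein, had 22, 29.3, 22.5 and 21.5 TPM in liver replicates 1 to 4, against 3624, 3800.2, 3066 and 2915 TPM in WAT replicates 1 to 4 (log2 fold change -5.71 ± 0.21, adjusted p = 9.56e-10). The fibrillar collagen Col3a1 averaged 4.25 ± 1.35 TPM in liver and 573 ± 159 TPM in WAT (log2 fold change -5.62 ± 0.34, adjusted p = 7.33e-08). The basement membrane collagen Col4a1 averaged 3.61 ± 1.12 TPM in liver and 284 ± 60.6 TPM in WAT (log2 fold change -5.06 ± 0.37, adjusted p = 4.93e-07). Mfap5, a microfibril protein, had no liver count and 2931 counts in WAT. The fibroblast and adipose progenitor markers, 5 of which are in this list, moved the same way, as described below, and their part in the difference was not tested. The 2 members higher in liver were Col18a1, the source of endostatin (159 ± 7.15 TPM in liver and 67.7 ± 10.1 TPM in WAT; log2 fold change 2.59 ± 0.15, adjusted p = 3.76e-08), and Fn1, fibronectin, which hepatocytes secrete into plasma (235 ± 36.6 TPM in liver and 119 ± 38.8 TPM in WAT; log2 fold change 2.37 ± 0.24, adjusted p = 3.53e-06).

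Liver transcription factors were mostly higher in liver, and adipocyte transcription factors were mixed. Of 22 tested liver transcription factors, 20 were higher in liver, 17 beyond 4-fold. Hnf4a, the nuclear receptor that specifies hepatocytes, had 235, 229, 179 and 158 TPM in liver replicates 1 to 4, against 0.672, 0.0282, 0.0669 and 0 TPM in WAT replicates 1 to 4 (log2 fold change 11.45 ± 0.72, adjusted p = 2.27e-07). Foxa3 and Nr1i2, further hepatocyte regulators, had 1621 and 2471 counts in liver and none in WAT. Of 22 tested adipocyte transcription factors among 26 listed, 12 were lower and 6 higher in liver, 9 and 0 beyond 4-fold. Pparg, the master regulator of fat cells, had 2.11, 2.18, 4 and 2.33 TPM in liver replicates 1 to 4, against 186, 158, 209 and 156 TPM in WAT replicates 1 to 4 (log2 fold change -4.49 ± 0.25, adjusted p = 3.04e-08). Its oxidative relative Ppara averaged 58.7 ± 14 TPM in liver and 2.84 ± 0.513 TPM in WAT (log2 fold change 5.80 ± 0.21, adjusted p = 8.62e-10). Ebf1, an early adipocyte factor, averaged 0.155 ± 0.0905 TPM in liver and 53 ± 6.11 TPM in WAT (log2 fold change -7.78 ± 0.24, adjusted p = 2.71e-10). Its relative Ebf2 had no liver count and 2230 in WAT, and the positional gene Hoxc8 had 2 counts in liver and 3070 in WAT. Factors used by both cell types were shared. Cebpa averaged 118 ± 24.9 TPM in liver and 312 ± 44.5 TPM in WAT and did not pass the test (log2 fold change 0.03 ± 0.16, adjusted p = 0.861). The carbohydrate response factor Mlxipl averaged 41.6 ± 2.6 TPM in liver and 28.5 ± 12.3 TPM in WAT, with overlapping ranges (log2 fold change 2.25 ± 0.26, adjusted p = 1.62e-05). Mpc1, a subunit of the mitochondrial pyruvate carrier, had the fold change closest to 0 of all genes above 100 TPM in both tissues (0.00 ± 0.16), at 187 TPM in liver and 479.7 TPM in WAT.

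Receptors for hormones and metabolites matched the textbook roles of the tissues in part. Of 32 tested genes among 33 listed, 12 were higher and 16 lower in liver, 7 and 12 beyond 4-fold. Of all tested genes, 35% were higher and 38.5% lower, 8.99% and 13.9% beyond 4-fold. The glucagon receptor Gcgr had 83.1, 86.6, 77.8 and 74.1 TPM in liver, against 0, 0, 0 and 1.7 TPM in WAT. WAT replicate 4 was the WAT library with a value above 0 (log2 fold change 9.15 ± 0.67, adjusted p = 7.73e-07). The beta-3 adrenergic receptor Adrb3 had 0.935, 0.424, 0.955 and 1.37 TPM in liver, against 389, 203, 435 and 488 TPM in WAT, and the groups were far apart (log2 fold change -7.27 ± 0.40, adjusted p = 5.14e-08). The asialoglycoprotein receptor Asgr1 had 14208 counts in liver and 2 in WAT, and the lactate receptor Hcar1 2 in liver and 6898 in WAT. The fatty acid receptor Ffar4 and the incretin receptor Gipr had no liver count and 698 and 197 in WAT. Adra1b, the alpha-1 adrenergic receptor of hepatocytes, averaged 17 ± 1.01 TPM in liver and 0.916 ± 0.51 TPM in WAT (log2 fold change 5.43 ± 0.23, adjusted p = 3e-09). The epidermal growth factor receptor Egfr averaged 163 ± 49.6 TPM in liver and 23.5 ± 1.03 TPM in WAT (log2 fold change 4.14 ± 0.30, adjusted p = 2.27e-07). Of the FGF receptors, Fgfr4 averaged 9.22 ± 1.98 TPM in liver and 0.168 ± 0.239 TPM in WAT (log2 fold change 7.22 ± 0.49, adjusted p = 2.71e-07). Fgfr1 averaged 4.05 ± 1.55 TPM in liver and 83.5 ± 7.86 TPM in WAT (log2 fold change -3.96 ± 0.22, adjusted p = 2.25e-08). The growth hormone receptor Ghr averaged 236 ± 34.2 TPM in liver and 913 ± 80 TPM in WAT (log2 fold change -0.78 ± 0.17, adjusted p = 0.0017). The thyroid hormone receptor Thra averaged 4.58 ± 0.843 TPM in liver and 66.7 ± 3.15 TPM in WAT (log2 fold change -2.34 ± 0.13, adjusted p = 2.2e-08). Of 22 insulin signalling genes, 4 were higher and 13 lower in liver, 0 and 4 beyond 4-fold, with a median of -0.53.

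Markers of the cell types each tissue holds were then compared. In bulk tissue, fewer cells of a type and less of its RNA per cell cannot be told apart, and every cell type's share also moves with how much RNA hepatocytes or adipocytes contribute. All 14 adipocyte markers were lower in liver beyond 4-fold, at a summed 28.1 to 34.6 TPM in liver and 38241 to 54059 TPM in WAT. Of 14 hepatocyte markers 12 were higher beyond 4-fold, at a summed 55190 to 86867 TPM in liver and 4156 to 6044 TPM in WAT. Most of the WAT sum came from Cyp2e1 and Pck1, described above. The strictest markers were near 0 in the other tissue: Alb in WAT was 0.0493% of its liver level, Hnf4a 0.0957% and Cps1 0.0229%, and Adipoq in liver was 0.0197% of its WAT level, Plin1 0.0171% and Lep 0.00968%. The source of these traces was not tested.

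**Figure D5:**
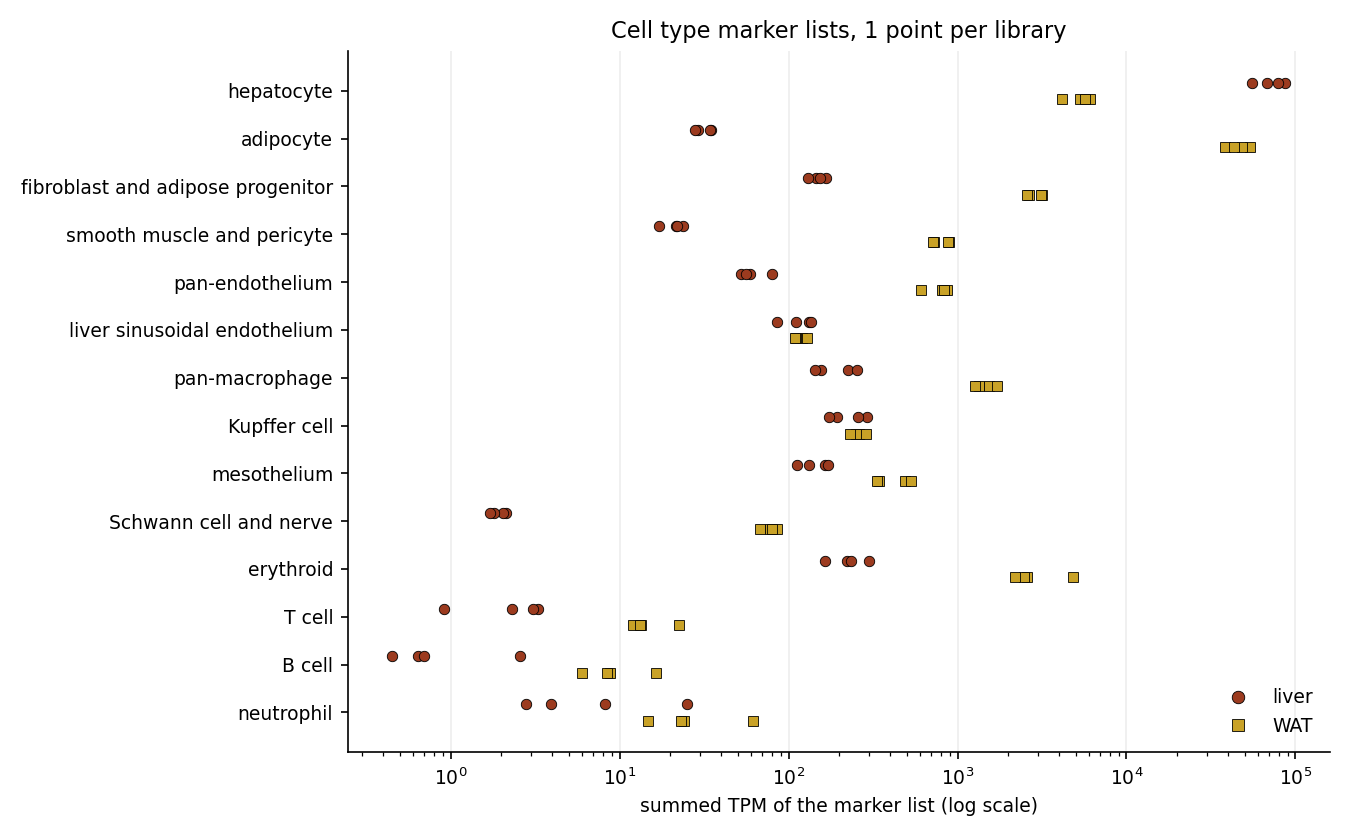
Summed TPM of each cell type marker list (horizontal, log scale), with 1 point per library, liver circles above WAT squares. Hepatocyte markers are higher in liver and adipocyte, fibroblast, mural, endothelial, macrophage, mesothelial, nerve and red cell lists are higher in WAT, while the sinusoidal endothelium and Kupffer cell sums of the tissues overlap.

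Macrophage markers were mostly lower in liver, with resident liver macrophage genes as exceptions. Of 12 pan-macrophage markers, 11 were lower in liver, 2 beyond 4-fold, at 144 to 254 TPM in liver and 1271 to 1713 TPM in WAT. The lysozyme gene Lyz2 averaged 49.9 ± 16.3 TPM in liver and 764 ± 141 TPM in WAT (log2 fold change -2.48 ± 0.24, adjusted p = 3.74e-06). The complement subunit C1qa averaged 32.1 ± 10.5 TPM in liver and 164 ± 24.4 TPM in WAT (log2 fold change -0.92 ± 0.21, adjusted p = 0.00243). Of 10 Kupffer cell markers, 7 were higher and 2 lower in liver, 4 and 0 beyond 4-fold, but on log2(TPM + 0.1) 4 were higher and 4 lower, with a median of 0.19. Their summed level overlapped, at 175 to 291 TPM in liver and 230.0 to 289 TPM in WAT. The lower members were Folr2 (-1.27 ± 0.22) and Cd163 (-1.80 ± 0.33), general markers of resident macrophages. Clec4f, a lectin made by Kupffer cells in mice, had 44.4, 27, 48.2 and 28.3 TPM in liver, against 0, 0, 0 and 0 TPM in WAT, and no WAT library had a count. It was at least 2136-fold higher in liver, counted against 3 counts over the WAT group. Cd5l and Vsig4, further resident liver macrophage genes, were higher in liver as well. Cd5l averaged 39.2 ± 17.2 TPM in liver and 2.76 ± 1.69 TPM in WAT (log2 fold change 5.24 ± 0.46, adjusted p = 3.15e-06). Vsig4 averaged 19.5 ± 7.74 TPM in liver and 2.75 ± 2.27 TPM in WAT (log2 fold change 4.26 ± 0.48, adjusted p = 1.86e-05). Of 10 genes of lipid-associated macrophages, 7 were lower in liver, 6 beyond 4-fold. Lpl is in that list and is also an adipocyte gene. Trem2, the receptor that marks them, had 4.59, 4.42, 20 and 4.98 TPM in WAT, where replicate 3 was highest, and no count in liver. The metalloprotease Mmp12 averaged 0.14 ± 0.162 TPM in liver and 15.1 ± 7.83 TPM in WAT (log2 fold change -5.27 ± 0.70, adjusted p = 4.09e-05). Osteopontin, Spp1, ran the other way at 54.4 ± 17.2 TPM in liver and 4.96 ± 5.58 TPM in WAT (log2 fold change 4.87 ± 0.59, adjusted p = 3.45e-05).

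Endothelial markers differed by vessel type in part. All 12 pan-endothelial markers were lower in liver, 7 beyond 4-fold, at 52.4 to 79.9 TPM in liver and 612 to 870 TPM in WAT. Pecam1, the adhesion molecule of all endothelium, had 5.93, 6.11, 5.09 and 4.88 TPM in liver, against 131, 137, 101 and 134 TPM in WAT (log2 fold change -3.09 ± 0.13, adjusted p = 2.57e-09). The tight junction gene Cldn5 averaged 1.5 ± 0.124 TPM in liver and 89.9 ± 24.8 TPM in WAT (log2 fold change -4.47 ± 0.25, adjusted p = 3.34e-08). Capillary genes of lipid-using tissues stood out in WAT. Gpihbp1, which anchors lipoprotein lipase to the capillary wall, averaged 22.9 ± 3.77 TPM in liver and 338 ± 95.7 TPM in WAT (log2 fold change -2.44 ± 0.20, adjusted p = 7.34e-07), and Car4, a surface carbonic anhydrase, had 1 count in liver and 2615 in WAT. Of 10 sinusoidal markers, 7 were higher and 2 lower in liver, 4 and 0 beyond 4-fold. On log2(TPM + 0.1) 4 were higher and 4 lower, and their median fell to 0.16. Their summed level overlapped, at 85.8 to 135 TPM in liver and 109 to 128 TPM in WAT. The sinusoidal members named here were all higher in liver. Clec4g, a lectin of liver sinusoids, averaged 49.4 ± 5.99 TPM in liver and 0.186 ± 0.148 TPM in WAT (log2 fold change 9.20 ± 0.27, adjusted p = 1.9e-10). Oit3 averaged 8.37 ± 1.94 TPM in liver and 0.0532 ± 0.0785 TPM in WAT (log2 fold change 8.43 ± 0.41, adjusted p = 8.91e-09). The scavenger receptor Stab2 averaged 2.81 ± 0.44 TPM in liver and 0.426 ± 0.369 TPM in WAT (log2 fold change 4.11 ± 0.58, adjusted p = 0.000107).

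Mesenchymal cells left a larger signal in WAT. Of 12 fibroblast and progenitor markers, 10 were lower in liver beyond 4-fold, at 130 to 167 TPM in liver and 2581 to 3170 TPM in WAT, and of 9 tested smooth muscle and pericyte markers all were lower, 8 beyond 4-fold. Pdgfra, the receptor of adipose progenitors, averaged 0.94 ± 0.305 TPM in liver and 20 ± 4.26 TPM in WAT (log2 fold change -2.89 ± 0.20, adjusted p = 1.82e-07). The small proteoglycan gene Dcn averaged 94.2 ± 15.6 TPM in liver and 1538 ± 189.9 TPM in WAT (log2 fold change -2.60 ± 0.16, adjusted p = 8.08e-08). The mural adhesion molecule Mcam averaged 1.37 ± 0.133 TPM in liver and 333 ± 33 TPM in WAT (log2 fold change -6.46 ± 0.15, adjusted p = 7.61e-11). Smooth muscle actin, Acta2, averaged 1.98 ± 1.41 TPM in liver and 165 ± 49.9 TPM in WAT (log2 fold change -4.97 ± 0.44, adjusted p = 2.95e-06). Stellate cell genes were mixed: of 9 tested, 5 were higher and 3 lower, 3 and 2 beyond 4-fold. Their median of 0.85 was negative on library totals (-0.30) and log2(TPM + 0.1) (-0.53). The list summed to 153 to 248 TPM in liver and 1637 to 2101 TPM in WAT. Dcn, described above, is in this list too and was lower in liver. Lrat and Colec11 were among the higher members. Lrat, which stores vitamin A as esters, averaged 2.25 ± 0.921 TPM in liver and 0.103 ± 0.0559 TPM in WAT (log2 fold change 5.83 ± 0.42, adjusted p = 2.18e-07). Colec11, a collectin of stellate cells, averaged 16.6 ± 3.23 TPM in liver and 2.39 ± 1.23 TPM in WAT (log2 fold change 4.29 ± 0.30, adjusted p = 2.02e-07).

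Other tissue elements were read from smaller lists. Of 11 mesothelial markers, 9 were lower and 2 higher in liver, all beyond 4-fold. Upk3b, which marks the mesothelium that covers visceral fat and other organs, had 0.655, 0.643, 0.33 and 0.193 TPM in liver, against 50.8, 88.3, 93.8 and 58.3 TPM in WAT (log2 fold change -5.88 ± 0.31, adjusted p = 3.08e-08). Mesothelin, Msln, averaged 0.711 ± 0.579 TPM in liver and 62.7 ± 21.3 TPM in WAT (log2 fold change -4.98 ± 0.41, adjusted p = 1.41e-06). The 2 that ran the other way were keratins of simple epithelium, also made by hepatocytes, such as Krt18 (4.46 ± 0.21). Epididymal epithelium genes summed to at most 0.516 TPM in liver and 3.49 TPM in WAT, and none could be tested. Ucp1, the uncoupling protein that defines brown and beige fat, had 0 counts in liver and 2 over the 4 WAT libraries. The brown fat gene Cidea had 80 counts in WAT and Cox8b averaged 1.6 TPM in liver and 36.4 TPM in WAT. Of 6 tested brown or beige fat genes, 2 were higher and 3 lower in liver, 1 and 3 beyond 4-fold. The list summed to 109 to 223 TPM in liver and 57.3 to 78.6 TPM in WAT, and Elovl3, described above, made up most of the liver sum.

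Immune and blood genes were low in both tissues, with hemoglobin as the exception. T cell markers summed to 0.913 to 3.30 TPM in liver and 12.0 to 22.6 TPM in WAT, and B cell markers to 0.452 to 2.57 TPM in liver and 6.02 to 16.5 TPM in WAT. Hemoglobin beta, Hbb-bs, averaged 81.1 ± 26.4 TPM in liver and 1570.0 ± 683 TPM in WAT (log2 fold change -2.82 ± 0.35, adjusted p = 3.96e-05), and its near-identical copies can exchange reads. Alas2, the heme synthesis enzyme of red cell precursors, ran the other way at 72.1 ± 4.47 TPM in liver and 12 ± 5.25 TPM in WAT (log2 fold change 4.02 ± 0.29, adjusted p = 4.01e-07). Of 5 tested Schwann cell and nerve markers among 8 listed, 1 was higher and 4 lower in liver, 1 and 3 beyond 4-fold. Among the lower ones, the nerve-associated sodium channel gene Scn7a averaged 0.0379 ± 0.0289 TPM in liver and 58.6 ± 5.63 TPM in WAT (log2 fold change -9.08 ± 0.24, adjusted p = 1.14e-10). Of 3 tested skeletal muscle markers among 9 listed, 1 was higher, 1 lower and 1 not called. The lower one, the skeletal muscle actin Acta1, averaged 2.37 ± 0.822 TPM in liver and 46.8 ± 29.3 TPM in WAT (log2 fold change -3.06 ± 0.50, adjusted p = 0.000317). Of 8 tested bile duct cell markers, 3 were higher and 5 lower in liver, 2 and 3 beyond 4-fold, with overlapping sums of 55.8 to 94.1 TPM in liver and 63 to 88.2 TPM in WAT. Spp1, described above, is in this list too and was higher in liver. Sctr, the secretin receptor known from bile duct cells, had 2 counts in liver and 705 in WAT, and the duct keratin Krt19 averaged 0.5 ± 0.213 TPM in liver and 19.3 ± 5.69 TPM in WAT (log2 fold change -3.80 ± 0.33, adjusted p = 1.05e-06). Krt19 is in the mesothelial list as well, most of whose markers were lower in liver.

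The tissue difference was repeated in mice that the comparison above did not use. Among the 9499 genes called in wild-type chow mice, 8114 (85.4%) were called the same way between liver and WAT of KO chow mice, 7899 (83.2%) in CTRL HSD mice and 7740 (81.5%) in KO HSD mice, and 7057 (74.3%) in all 3. Those groups called 73.7%, 73.2% and 71.6% of their tested genes in either direction. Of the 2964 genes beyond 4-fold, 2742 (92.5%) were called the same way in all 3 other groups and none the opposite way in any. The log2 fold change of Fasn was -2.65, -2.14 and -2.69 in KO chow, CTRL HSD and KO HSD mice, that of Scd1 was 0.37, -0.02 and -0.12, and that of Gpam was 1.09, 1.57 and 0.61. Adipoq gave -11.41, -11.59 and -11.25 and Alb 10.60, 11.79 and 12.23 in the same order. Whether these values differed between the groups was not tested.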

How the data were processed

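The authors deposited estimated counts and TPM per gene symbol (19521 genes) from bulk RNA sequencing; per the submitters' processing notes kallisto and GRCm38 were used, while the release of kallisto and its annotation are not stated there. The deposited estimated counts were rounded to whole numbers. The deposited TPM of the symbols in the table summed to 914071 to 922038 in liver and 816010 to 831535 in WAT and were used as given. kallisto divides reads among similar transcripts, so levels of near-identical genes (major urinary proteins, Saa1 and Saa2, hemoglobins, P450 clusters) are uncertain.

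Liver and WAT were compared with edgeR 4.0.16 in R 4.3.3 (genes kept by filterByExpr at a minimum count of 10, 12941 in all; TMM scaling; a robust quasi-likelihood fit with 1 mean per tissue), and with glmTreat against a 4-fold difference. The standard error is the absolute log2 fold change over the square root of F. Genes with at most 3 counts over the lower tissue are given as counts, as a ratio with an exact 95% counting interval, or, at 0, as a bound against 3 counts; such intervals cover counting error only. The labels do not say whether a liver and a WAT library came from the same animal, although both tissues carry the title numbers 9 to 12. The main fit did not use these numbers. Where replicates are not separate animals, p-values measure only the spread between libraries. No pair of libraries had identical values. The fit was checked on simulated counts in which few genes changed, as many up as down. That check does not test the TMM scaling. The alternatives were DESeq2 1.42.0, limma 3.58.1 on log2(TPM + 1) and log2(TPM + 0.1), other scaling factors, no low-count filter, no mitochondrially encoded genes, all 32 liver and WAT libraries, a replicate block, and leaving out each library. The ranking of liver transcripts without liver replicate 1 was added after seeing the data.

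The comparison, the 51 gene lists and the motifs were chosen with earlier results of these data known. Named genes are the members of 23 related pairs, up to 8 members of each list with the highest mean TPM and members called against the majority of their list, the 10 most abundant genes of each tissue, the 10 largest differences in each direction, the 5 most abundant one-sided genes and the genes most alike. Others were chosen after their values were seen. Promoter sequences are from RefSeq, GRCm38.p6. Heart and muscle libraries were not used here. Some genes that this rule names are not reported here.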

Additional observations from a re-analysis of the deposited data

Results flagged for a closer look

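Among 302 sets of 4 TPM values (a named gene in 1 tissue), 19 had 1 library set apart from the other 3 by more than Dixon's 95% critical value, where chance gives about 1 in 20. In WAT replicate 1, Acaca (96.4 TPM, against at least 198 in the others), Alb (9.99), Elovl6 (3.05) and Lpl (4040.1) were low, and Apol6 (683) and Ebf2 (17.6) were high. The same library had the lowest Fasn and Scd1 values of the WAT group. In WAT replicate 2, Cox4i1 (661) and the P450 gene Cyp2e1 (2148) were low. In WAT replicate 3, Ebf1 (43.9), Gpam (75.6), Hcar1 (38.5) and Pecam1 (101) were low and Trem2 (19.98, against at most 4.98 in the others) was high. In liver replicate 1, the library with the highest acute phase transcripts, Cps1 (861), Elovl6 (18.9) and Fads2 (208) were low. In liver replicate 2, C9 (352) was low and Bdh1 (114) and Sparc (29.3) were high. None of these departures brought a library of 1 tissue into the range of the other tissue, and their causes were not tested. For Cyp2e1 the ranges of the tissues overlap, but the low value of WAT replicate 2 lies below every liver value.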

How the results depend on the processing

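Calls at an adjusted p under 0.05 depended on the scale. Against 4523 genes higher and 4976 lower in liver, library totals gave 1697 higher and 9304 lower, limma on log2(TPM + 1) 1453 and 10033, and limma on log2(TPM + 0.1) 1443 and 9990. Beyond 4-fold, against 1163 higher and 1801 lower, library totals gave 3251 lower, log2(TPM + 1) 571 higher, and log2(TPM + 0.1) 689 higher and 3057 lower. The other counts stayed within 1.5 times. Leaving out single libraries gave 4332 to 4490 higher and 4804 to 5033 lower, and beyond 4-fold 1150 to 1196 higher and 1751 to 1844 lower; 2707 of the 2964 genes beyond 4-fold were called in all 8 such fits. Deviations of liver and WAT libraries with the same title number correlated at 0.022, 0.0017, 0.087 and 0.035. Those with different numbers correlated at -0.0786 to 0.0469. These ranges overlapped, so they do not settle whether the numbers pair the tissues. A replicate block gave 4425 higher and 4832 lower, and 1158 and 1753 beyond 4-fold. Among single genes the block added the call of Scd1.

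Of the 9499 called genes, the sign changed for 22 with upper-quartile factors, 2160 on library totals and 2563 on either TPM scale, 0, 0 and 1 of them beyond 4-fold. Causes beyond the scale itself were not tested. Named genes whose sign changed, called in the main fit or not, are listed next where the main fit, the alternative or both called them. On library totals, log2(TPM + 1) and log2(TPM + 0.1), the log2 fold change was -1.12, -1.40 and -1.41 for Cebpa, -0.62, -0.89 and -0.89 for Cox4i1, -0.89, -1.19 and -1.19 for Glul, -1.16, -1.35 and -1.36 for Mpc1, and -0.18, -0.45 and -0.45 for Pck1. Acly reversed on log2(TPM + 1) (-1.12), and Rarres2 (-0.0366 and -0.0367) and Eef1a1 (-0.24 and -0.24) on both TPM scales. In the tissue contrast of other mice, Gpam was 1.09 in KO chow and 1.57 in CTRL HSD mice, Me1 0.0544 in KO HSD mice, Cebpa -0.36 and Mpc1 -0.41 in CTRL HSD mice, and Cox4i1 -0.0174 in CTRL HSD and -0.0661 in KO HSD mice. Depth limits the genes with few counts in 1 tissue: below 3 counts over 4 libraries no lower level could be told from 0.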
